A study of Homo sapiens with 12 samples.

Results

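Late entries of the human microRNA registry, miR-1178 to miR-1324, were followed across 12 microRNA arrays of SUM159, an established triple-negative breast cancer cell line. The set holds the names in this number range without an asterisk, which marks the passenger strand, and leaves out 19 entries of the range that are grouped elsewhere, among them miR-1246 and miR-1308. It comprises 86 of the 851 human names on the array. Of these 86, 18 gave a detected signal somewhere and 11 did so on each of the 12 arrays. The statistical tests covered 14 members, each detected throughout some group.

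The cells stably carried a pLKO.1 lentiviral vector encoding a scrambled shRNA (the control) or one directed at Dicer, and grew in medium with serum, insulin and hydrocortisone. Each line received PBS as vehicle or 0.5 mM metformin, a biguanide used against type 2 diabetes, for 24 h. The 4 groups had 3 biological replicates each, and are named here control-vehicle, Dicer-vehicle, control-metformin and Dicer-metformin. Whether a line was a pool or a clone is not given in the sources used here. All PBS arrays shared a slide and all metformin arrays shared another, which means that slide and metformin cannot be told apart. The control line also came before the Dicer shRNA line on each slide, and position and line cannot be told apart either. A microRNA array does not read Dicer mRNA, and the knockdown was not checked here. The arrays detected 130 to 204 human names, with no identical values between replicates. The epithelial miR-200a, miR-200b, miR-200c, miR-141 and miR-429 were detected on no array, and miR-205 on all 12.

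A microRNA is made in steps. Drosha, with its partner DGCR8, cuts a hairpin from the primary transcript, Dicer cuts the hairpin to a short duplex, and 1 strand enters an Argonaute protein and pairs with target mRNAs through its seed, bases 2 to 8. Mirtrons, such as miR-1224 and miR-1236, are spliced out as short introns and bypass Drosha but still need Dicer. Most entries in this number range were added from deep sequencing and are poorly conserved, and some of them may not be Dicer products.

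The sequences shown, with the seed in capitals, belong to a selection of called members, including those detected in 1 group alone. miR-1305 is shown for contrast because it was called in no comparison. They are the RefSeq mature sequences on build GRCh38.p14. Of the 86 members, 72 matched an entry (83.7%), 44 of them by exact name. The called members miR-1207-5p and miR-1300 matched none and are not shown. A name that has since been split is shown with each of its present entries, because the array name does not say which arm the probe reads.
miR-1287-5p: uGCUGGAUcagugguucgaguc
miR-1287-3p: cUCUAGCCacagaugcagugau
miR-1181: cCGUCGCCgccacccgagccg
miR-1268a: cGGGCGUGgugguggggg
miR-1268b: cGGGCGUGguggugggggug
miR-1249-3p: aCGCCCUUcccccccuucuuca
miR-1249-5p: aGGAGGGAggagaugggccaaguu
miR-1202: gUGCCAGCugcagugggggag
miR-1305: uUUUCAACucuaaugggagaga
miR-1182: gAGGGUCUugggagggaugugac
miR-1306-5p: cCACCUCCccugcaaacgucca
miR-1306-3p: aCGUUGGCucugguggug
The gene of miR-1287 lies at chr10:98395271-98395292 for its 5p arm, on the minus strand, within the span of PYROXD2. miR-1181 lies at chr19:10403505-10403525 on the minus strand, within the span of CDC37, which encodes a kinase co-chaperone of HSP90. miR-1202 lies at chr6:155946809-155946829 on the plus strand, within a long noncoding RNA gene. The 3p arm of miR-1249 lies at chr22:45200958-45200979 on the minus strand, within KIAA0930. miR-1306 (3p arm at chr22:20086112-20086129, plus strand) lies within the gene of DGCR8 itself. miR-1268a (chr15:22225308-22225325, minus strand) and miR-1268b (chr17:80098831-80098850, plus strand) share their seed, and the sequences differ only in length, 18 and 20 bases.

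Base composition varied among the members detected on all arrays. miR-1181 had 85.7% G and C, miR-1268a 83.3% and miR-1202 71.4%, and miR-1268a and miR-1202 each held a run of 5 G. The 3p arm of miR-1249 held a run of 7 C. By contrast miR-1305 had 36.4%, and the 2 arms of miR-1287 had 54.5% and 50.0%.

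Over the matched members, the median G and C content was 66.7% for the 9 of 11 on all 12 arrays that had a sequence, 55.6% for the 7 on 1 to 11 arrays, and 47.7% for the 56 of 68 on no array. The ranges overlapped widely, from 36.4% to 85.7% on all arrays and from 12.5% to 74.0% on none. The same reading for the other human names without an asterisk was void for those on all arrays, since only 79.5% of them had a sequence. Among the rest of those names the medians were 48.9% on 1 to 11 arrays and 45.5% on no array. These values describe base composition only, whether it differs from that of other names was not tested, and members on the same array share its hybridisation.

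**Figure D1:**
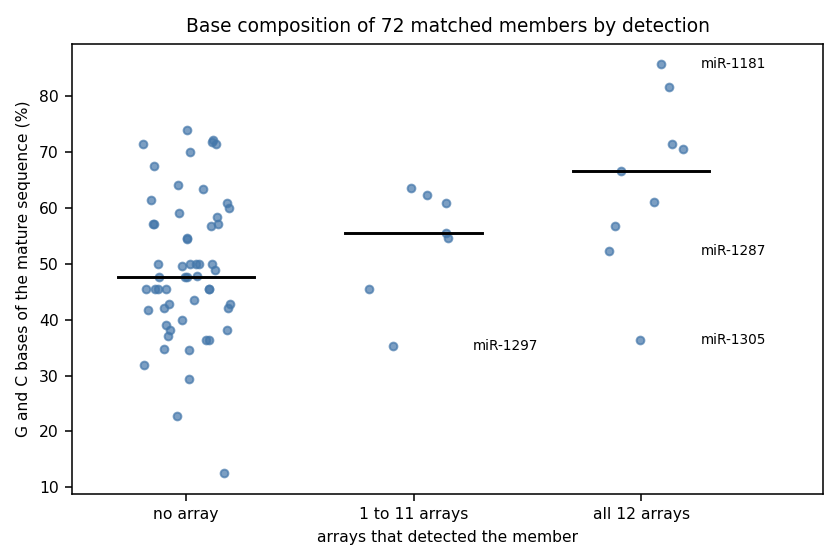
Share of G and C bases (%) in the mature sequence, as the mean over the listed arms, for the 72 matched members, grouped by the number of arrays that detected them; each point is a microRNA and each bar a median. The medians rise from 47.7% on no array to 66.7% on all 12, with miR-1305 (36.4%) far below the others on all 12.

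More members were detected on the control-metformin arrays than on any other, by a small margin. These arrays detected 15, 14 and 15 members, or 14.7 ± 0.577 (SD, n = 3). The control-vehicle arrays detected 12, 13 and 12 (12.3 ± 0.577, SD, n = 3), the Dicer-vehicle arrays 12, 13 and 13 (12.7 ± 0.577, SD, n = 3) and the Dicer-metformin arrays 11, 13 and 12 (12 ± 1, SD, n = 3). The difference from control-vehicle was 2.33 members and that of Dicer-metformin from control-metformin was -2.67, each with an exact two-sided permutation p of 0.1, the smallest that 3 against 3 arrays allow. The counts of all human names ran the other way, with 151 to 163 on the control-metformin and 176 to 204 on the control-vehicle arrays. In Dicer-vehicle against control-vehicle cells the exact permutation p was 1.0, and in Dicer-metformin against Dicer-vehicle cells it was 0.7.

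The 68 members detected on no array include miR-1178, miR-1179, miR-1180, miR-1184, miR-1197, miR-1200, miR-1201, miR-1203, miR-1204 and miR-1205. Detection on at least 1 array was 20.9% for the members, 30.9% for all human names and 22.7% for the 88 probes for viral microRNAs. Detection on all 12 arrays was 12.8%, 11.5% and 11.4%. By contrast all 33 canonical conserved microRNAs of a list of let-7, miR-17, miR-15, miR-23, miR-29 and related families were detected on at least 1 array.

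A further 4 members were detected too rarely to be tested. miR-1288 gave scaled signals of 3.18 on 1 control-vehicle array and 5.29 and 6.24 on 2 Dicer-vehicle arrays. miR-1296 gave 5.48, 10.9 and 9.80 on single arrays of the control-vehicle, Dicer-vehicle and control-metformin groups. miR-1299 gave 4.26 on 1 control-metformin array. miR-1297, which carries the same seed, UCAAGUA, as the conserved miR-26a-5p and miR-26b-5p, gave 4.38 on 1 Dicer-metformin array. None of these signals exceeded 10.9, where the floor, the scaled signal below which values were held equal, was 3.01.

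The signals are Agilent total gene signals, scaled so that the 75th percentile of the 98 names detected on all arrays is the same on each array. Differences are given on the log2 scale ± SE from a limma fit over all 208 tested human names, and a call is an adjusted p under 0.05.

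In each of the 5 comparisons miR-1287 was called in the direction opposite to that of every other member called there. On the control-vehicle arrays it read 106, 74.9 and 72.5, and on the Dicer-vehicle arrays 37.2, 39.1 and 37.1. On the control-metformin arrays it read 12.7, 12.9 and 13.4, and on the Dicer-metformin arrays 24.5, 26.6 and 22.2. No pair of groups overlapped, and the control-metformin arrays were lowest. Under vehicle miR-1287 was lower in Dicer shRNA than in control shRNA cells (-1.14 ± 0.14, or 2.20-fold lower, adjusted p = 6.1e-05). With metformin it was higher in Dicer shRNA than in control shRNA cells (0.91 ± 0.14, adjusted p = 0.00044). Metformin went with a 6.41-fold lower signal in the control line (-2.68 ± 0.14, adjusted p = 2.9e-08) and a smaller decrease in the Dicer shRNA line (-0.64 ± 0.14, adjusted p = 0.0087). The difference between those 2 responses was 2.04 ± 0.20 (adjusted p = 8.9e-06).

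These calls of miR-1287 held under each of 6 scalings of the arrays, other than the decrease in the Dicer shRNA line, which was -0.27 and not called with the deposited series matrix. The error that the files give with each signal was 7.52% to 16.6% of it. Most canonical conserved microRNAs were called in the same direction in 3 of the 4 comparisons. Of 31 tested, all 31 were lower with Dicer shRNA under vehicle (median -2.34) and all 31 lower with metformin in the control line (median -4.37). With metformin in the Dicer shRNA line 16 were lower and 15 not called (median -0.92), and for Dicer shRNA under metformin 10 were higher and 21 not called (median 0.00). The 6 of them on all 12 arrays had medians of -1.47, 2.06, -4.34 and -0.96 in the 4 comparisons, against -1.14, 0.91, -2.68 and -0.64 for miR-1287.

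**Figure D2:**
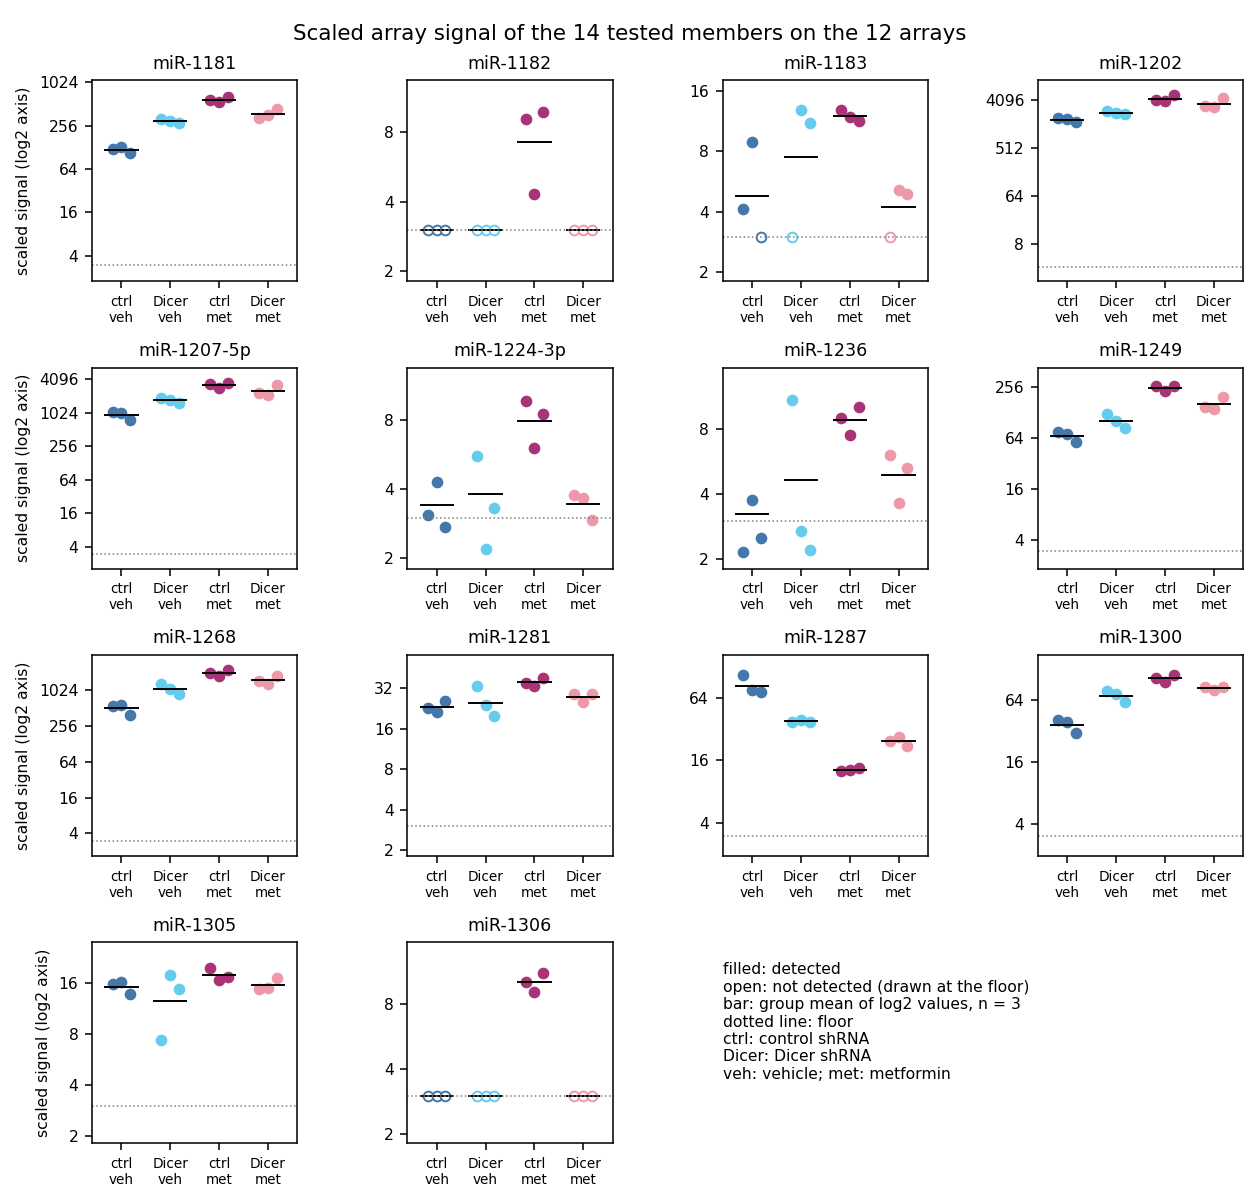
Scaled signal (log2 axis) of the 14 tested members on each array of the 4 groups; filled points were detected, open points were not and are drawn at the floor (dotted line), and bars are means of the floored log2 values. miR-1287 falls from 106 on a control-vehicle array to 12.7 on a control-metformin array, while miR-1181 rises from 106 to 645.

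Several members were called higher in Dicer shRNA than in control shRNA cells under vehicle. Over the 14 tested, 6 were called higher and 1, miR-1287, lower. When the arrays were scaled to the viral probes 2 were higher and 6 lower, beside 14 higher and 119 lower of all tested names. In the main scaling 59.6% of all tested names were called, 21.6% higher and 38.0% lower. The 7 calls of the main scaling fell among the 11 members detected on all 12 arrays, beside 40 higher and 23 lower of the 98 such human names. The arrays of the 2 lines did not overlap for 6 members that were higher and 1 that was lower, where 63.0% of all tested names did not overlap, 23.6% higher and 39.4% lower. The median over the 14 was 0.48 and over all tested names 0.00.

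miR-1181 read 122, 129 and 106 on the control-vehicle arrays and 317, 296 and 277 on the Dicer-vehicle arrays. Its groups were well apart, with a difference of 1.32 ± 0.13 (adjusted p = 1.9e-05) that stayed above 0 and called under all 6 scalings, at 0.44 with viral scaling. miR-1268 read 559, 576 and 392 against 1307, 1086 and 883. It was higher by 1.10 ± 0.20 (adjusted p = 0.00071), and likewise called under all 6 scalings, at 0.23 with viral scaling.

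miR-1300 read 40.7, 39.1 and 30.8 against 78.4, 72.4 and 61.1, a difference of 0.94 ± 0.13 (adjusted p = 0.00015) that was 0.07 and not called with viral scaling. miR-1207-5p read 1051, 1002 and 768 against 1925, 1710 and 1518. Its difference of 0.88 ± 0.18 (adjusted p = 0.0019) was 0.12 after quantile normalization and 0.00 with viral scaling, without a call. Groups did not overlap for either microRNA.

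miR-1249 read 75.4, 70.7 and 56.8 against 123, 100.2 and 82.4, a difference of 0.58 ± 0.18 (adjusted p = 0.019) that was -0.29 and called lower with viral scaling. It was not called when scaled to the median (0.17, adjusted p = 0.28) or with the series matrix (0.45, adjusted p = 0.061). Its call was lost without control-vehicle replicate 3 (adjusted p = 0.0729) or Dicer-vehicle replicate 1 (adjusted p = 0.068). miR-1202, a primate microRNA studied in brain for its link to the glutamate receptor GRM4, read 1838, 1773 and 1556 against 2522, 2294 and 2188. Its difference of 0.44 ± 0.16 (adjusted p = 0.036) was -0.44 and called lower with viral scaling, and was called under none of the other 4 scalings. It was also lost without control-vehicle replicate 2 or 3 or Dicer-vehicle replicate 1 or 2 (adjusted p = 0.061, 0.113, 0.101 and 0.0712). The groups of both microRNAs were close but did not overlap.

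The remaining tested members were not called under vehicle. miR-1281 read 22.9, 21.4 and 25.9 against 33.1, 23.9 and 19.8, and miR-1305 read 15.8, 16.1 and 13.7 against 7.40, 17.8 and 14.7. Dicer-vehicle replicate 1 was the highest array for the first and the lowest for the second. The differences were 0.10 ± 0.17 and -0.28 ± 0.27 (adjusted p = 0.69 and 0.42), and without that array they were -0.10 and 0.10. The mirtron miR-1236 read 2.17, 3.76 and 2.51 against 10.9, 2.70 and 2.21, where the same array again stood apart (0.51 ± 0.44, adjusted p = 0.36, and -0.11 without it). The mirtron strand miR-1224-3p read 3.08, 4.31 and 2.74 against 5.59, 2.20 and 3.30 (0.16 ± 0.26, adjusted p = 0.68). Both mirtrons lay near the floor of 3.01, with 4 and 3 detected arrays under it.

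**Figure D3:**
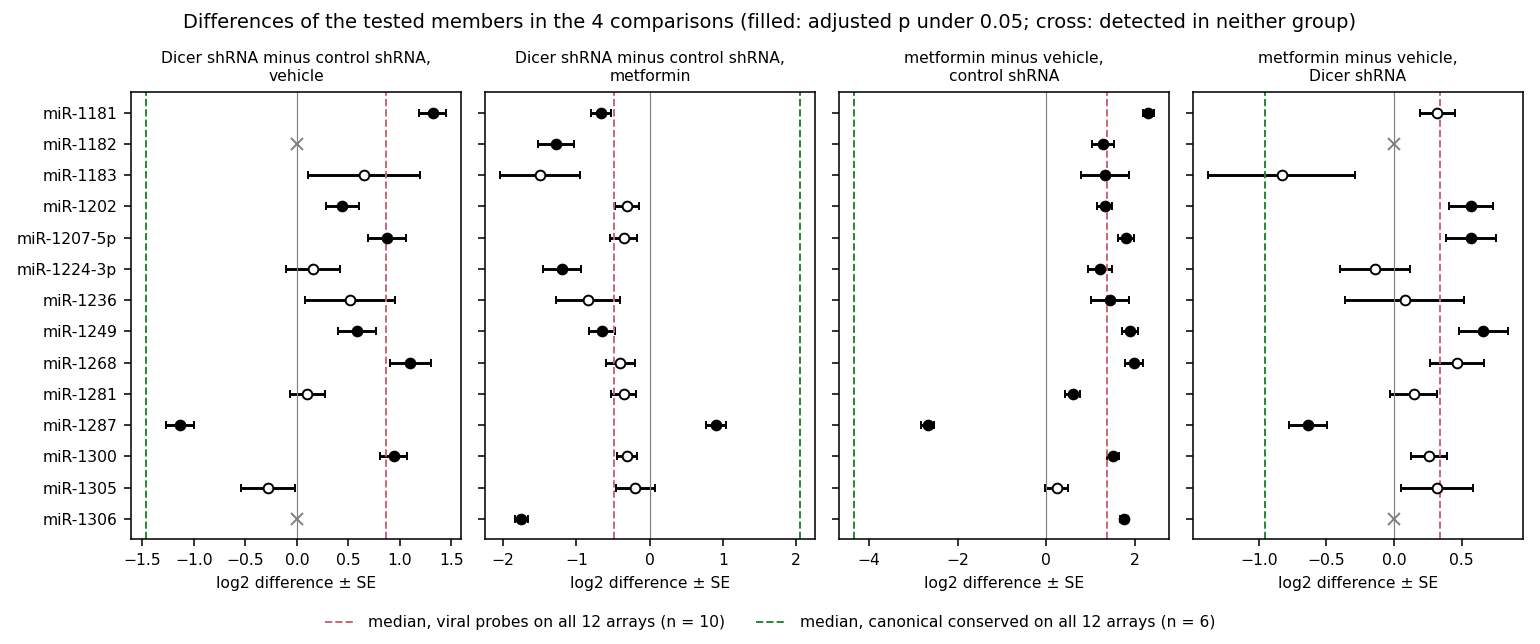
Log2 difference ± SE (limma, 3 arrays per group) of the 14 tested members in 4 comparisons; filled points have an adjusted p under 0.05, open points do not, and crosses mark members detected in neither group. Dashed lines are the medians of the 10 viral probes (0.87, -0.49, 1.38 and 0.34) and of the 6 canonical conserved microRNAs (-1.47, 2.06, -4.34 and -0.96) detected on all 12 arrays; miR-1287 lies on the canonical side of 0 in each panel.

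With metformin, miR-1181 and miR-1249 were lower in Dicer shRNA than in control shRNA cells and miR-1287 higher, each against its direction under vehicle. Of the 14, 1 was called higher (miR-1287) and 5 lower, where 38.9% of all tested names were called, 13.9% higher and 25.0% lower. miR-1182 and miR-1306 are among the 5 and entered the test only through the control-metformin group, as did miR-1183. Among the 11 detected on all arrays 1 was higher and 3 lower, beside 19 higher and 24 lower of the 98 such names. Groups did not overlap for 1 member that was higher and 9 that were lower, where 53.8% of all tested names did not overlap, 13.9% higher and 39.9% lower. Those 9 include the members tested only through the control-metformin group. Among the 11 on all arrays the groups did not overlap for 1 higher and 6 lower, beside 19 higher and 48 lower of the 98 names. The count of the 14 depends on the scaling, with 12 lower and 1 higher when scaled to the median and 1 lower and 1 higher when scaled to the viral probes. The count of all tested names moved as well, with 106 lower and 23 higher and then 15 lower and 36 higher.

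miR-1181 read 577, 540 and 645 on the control-metformin and 325, 356 and 439 on the Dicer-metformin arrays, without overlap. It was lower by -0.66 ± 0.13 (adjusted p = 0.0023), but was 0.03 after quantile normalization and -0.12 with viral scaling, without a call. miR-1249 read 262, 225 and 263 against 149, 138 and 196 (-0.65 ± 0.18, adjusted p = 0.018). Its call was lost after quantile normalization (-0.48, adjusted p = 0.061) and with viral scaling (-0.11, adjusted p = 0.46), and also without control-metformin replicate 1 or 3 or Dicer-metformin replicate 1 or 2 (adjusted p = 0.0618, 0.0606, 0.0636 and 0.0768). miR-1224-3p read 9.65, 6.04 and 8.51 against 3.77, 3.67 and 2.93, a difference of -1.19 ± 0.26 (adjusted p = 0.0043) that the floor limits and that was called under neither quantile nor viral scaling nor with the series matrix.

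Other members were lower on average in Dicer-metformin cells without a call. The differences were -0.40 for miR-1268, -0.35 for miR-1281, -0.35 for miR-1207-5p, -0.31 for miR-1202 and -0.31 for miR-1300, with adjusted p from 0.095 to 0.16. Without Dicer-metformin replicate 3, miR-1202 (-0.48, adjusted p = 0.0196) and miR-1207-5p (-0.53, adjusted p = 0.0294) passed. miR-1305 (-0.19 ± 0.27, adjusted p = 0.66) and miR-1236 (-0.85 ± 0.44, adjusted p = 0.15) did not pass.

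Metformin in the control line went with the broadest change among the members. Of the 14, 12 were called higher and 1, miR-1287, lower. With viral scaling 5 were higher and 4 lower, beside 36 higher and 124 lower of all tested names. Of the 12, miR-1182, miR-1183 and miR-1306 were tested only because all control-metformin arrays detected them. The counts and median over the 14 include them. A difference of miR-1182 and miR-1306, detected on no other array, was set by this filter. For miR-1183, detected on 2 arrays of each other group, the filter favoured a difference without fixing it. This comparison called 88.0% of all tested names, 47.6% higher and 40.4% lower. Among the 11 members on all arrays 9 were higher and 1 lower, beside 61 higher and 25 lower of the 98 such names. Groups did not overlap for 13 members that were higher and 1 that was lower, where 91.8% of all tested names did not overlap, 51.4% higher and 40.4% lower. Among the 11 on all arrays the groups did not overlap for 10 higher and 1 lower, beside 66 higher and 25 lower of the 98 names. The median was 1.44 over the 11 members on all arrays and 0.93 over the 98 names, and 1.38 over the 14 and 0.52 over all tested names, or 0.02 and -0.99 with viral scaling.

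miR-1181 rose by 2.30 ± 0.13 (adjusted p = 5.4e-08), from 106 to 129 on the control-vehicle arrays to 540 to 645. miR-1268 read 1969, 1764 and 2202 with metformin and rose by 1.97 ± 0.20, and miR-1249 rose by 1.89 ± 0.18. These 3 were called higher under all 6 scalings, at 0.65, 0.32 and 0.24 with viral scaling.

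miR-1207-5p read 3328, 2838 and 3588 with metformin and rose by 1.80 ± 0.18, or 0.12 after quantile normalization and 0.14 with viral scaling, without a call. miR-1300 read 104, 95.5 and 113 and rose by 1.51 ± 0.13, but was -0.15 with viral scaling. miR-1202 read 4048, 3822 and 5039 and rose by 1.31 ± 0.16. Its difference was 0.05 after quantile normalization and 0.44 with the series matrix (adjusted p = 0.051), without a call. With viral scaling it was -0.34 and called lower. None of these microRNAs overlapped with its control-vehicle arrays.

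Of the dimmer members, the mirtron miR-1236 read 8.97, 7.48 and 10.1 with metformin and rose by 1.44 ± 0.44 (adjusted p = 0.01), and miR-1224-3p rose by 1.21 ± 0.26 (adjusted p = 0.0013); with viral scaling they were 0.03 and -0.40 without a call. miR-1281 read 34.8, 33 and 38.3 and rose by 0.60 ± 0.17 (adjusted p = 0.0074). Without scaling miR-1281 was 0.23 and not called (adjusted p = 0.21), and with viral scaling it was -1.06 and called lower. miR-1305 read 19.4, 16.7 and 17.3, just above its control-vehicle values, and was not called (0.23 ± 0.27, adjusted p = 0.41). With viral scaling miR-1305 was -1.42 and called lower.

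miR-1306 and miR-1182 were detected on the control-metformin arrays alone. miR-1306, encoded within DGCR8, read 10.2, 9.12 and 11.2 there. With undetected arrays held at the floor, it was 3.36-fold higher than in control-vehicle cells (adjusted p = 1.9e-08) and than in Dicer-metformin cells (adjusted p = 1.5e-07). miR-1182 read 9.15, 4.33 and 9.77 and was in the same way 2.42-fold higher than in those groups (adjusted p = 0.00067 and 0.002). These folds are for the main scaling and are not lower bounds, since an undetected signal may lie above the floor. Against control-vehicle cells the fitted log2 difference ran from 0.88 with viral scaling to 3.47 with the series matrix for miR-1306 and from 0.48 to 3.03 for miR-1182. Against Dicer-metformin cells miR-1182 was not called with viral scaling (-0.48, adjusted p = 0.066). The folds are set by the floor, and undetected groups, all held at that floor, show no variation, which makes these p-values too small. Both members were tested only through the group that detected them, so a difference was set in advance and the p-values lend it no support. The files' own errors for both members were 18.3% to 30.8% of the signal.

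In all, 9 human names were detected on the 3 control-metformin arrays and on no other array, 1.06% of the 851, and 2 viral probes showed the same pattern. So did 2 of 7 blood cell markers, miR-223 and miR-486-5p, with a summed signal of 15.2 to 20.4 on these arrays and none on the other arrays. The other blood markers of the list, miR-451, miR-144, miR-142-3p, miR-142-5p and miR-150, were detected on no array. The muscle list, of which miR-133a and miR-133b were detected but not miR-1 or miR-206, summed to 24.9 to 29.9 on the control-metformin arrays to 7.74 to 21.1 on the Dicer-metformin arrays and to at most 6.52 on vehicle arrays. Other lists fell from control-vehicle to control-metformin arrays. The sum of the epithelial list, read from miR-205 alone, was 620.0 to 644.6 and then 106 to 134, that of 3 of 5 mesenchymal markers 69.7 to 86.3 and then 0, and that of the neural list, read from miR-128 alone, 5.10 to 7.05 and then 0. The liver marker miR-122 was detected on no array. The part of these signals in the result was not tested.

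miR-1183 read 4.16 and 8.87 on 2 control-vehicle arrays, 12.9 and 11 on 2 Dicer-vehicle arrays, 12.8, 11.8 and 11.3 on the control-metformin arrays and 5.17 and 4.91 on 2 Dicer-metformin arrays. Detection was complete in the control-metformin group alone. Its increase with metformin in the control line (1.32 ± 0.55, adjusted p = 0.042) was lost without any of control-vehicle replicates 1 and 3 and control-metformin replicates 1, 2 and 3 (adjusted p = 0.0778 to 0.16). It was also lost without scaling (0.96, adjusted p = 0.118), with viral scaling (0.00, adjusted p = 1.0), with the series matrix (2.08, adjusted p = 0.0949), with an offset of 16 (0.48, adjusted p = 0.0606), with no filter (adjusted p = 0.0661) and with array weights (0.87, adjusted p = 0.0631). In Dicer-vehicle against control-vehicle cells the difference was 0.65 ± 0.55 (adjusted p = 0.36), and it passed at 1.32 without Dicer-vehicle replicate 1, which did not detect it. With metformin the lines differed by -1.50 ± 0.55 (adjusted p = 0.053).

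In the Dicer shRNA line metformin went with few changes among the members. Of the 14, 3 were called higher and 1 lower, where 24.5% of all tested names were called, 6.25% higher and 18.3% lower. Groups did not overlap for 5 members that were higher and 1 that was lower, where 37.0% of all tested names did not overlap, 16.3% higher and 20.7% lower. The count of calls rests on single arrays. It was 1 without Dicer-vehicle replicate 2, Dicer-vehicle replicate 3 or Dicer-metformin replicate 3, and 7 without Dicer-vehicle replicate 1. It was 2 without scaling, with 1 higher and 1 lower, and 2 with the series matrix, both higher. Of all tested names, 6 were higher and 44 lower without scaling, and 34 higher and 12 lower with the series matrix.

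The 3 called higher were miR-1249, miR-1202 and miR-1207-5p. miR-1249 differed by 0.66 ± 0.18 (adjusted p = 0.027) and was called under all 6 scalings, though its adjusted p was 0.072, 0.0975 and 0.107 without the 3 arrays named first. miR-1202 read 3108, 3040 and 4369 on the Dicer-metformin arrays and differed by 0.57 ± 0.16 (adjusted p = 0.028), but was -0.05 after quantile normalization and -0.15 with the series matrix. miR-1207-5p read 2326, 2160 and 3246 and differed by 0.57 ± 0.18 (adjusted p = 0.049), but was -0.28 with the series matrix. For both, Dicer-metformin replicate 3 was the highest array, and without it the differences were 0.40 and 0.39 (adjusted p = 0.0963 and 0.168).

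Apart from miR-1287, which was called lower, the other members were not called in the Dicer shRNA line. miR-1268 read 1444, 1289 and 1779 (0.47 ± 0.20, adjusted p = 0.11, or 0.0478 without Dicer-vehicle replicate 1), and miR-1181 differed by 0.32 ± 0.13 (adjusted p = 0.099). miR-1300 read 86.0, 80.4 and 85.7 and differed by 0.26 ± 0.13 (adjusted p = 0.19). miR-1281 and miR-1305, at 25.3 to 29.0 and 14.7 to 17.0, lay inside their vehicle ranges. miR-1236 read 6.05, 3.65 and 5.28 (0.08 ± 0.44), and passed at 0.70 without Dicer-vehicle replicate 1 (adjusted p = 0.0345).

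The test of the difference between the 2 metformin responses called 11 of the 14 members, 10 of them with a smaller or more negative response in the Dicer shRNA line and miR-1287 with a less negative one. miR-1182, miR-1183 and miR-1306 are among the 10 and were tested only through the control-metformin group. For miR-1182 and miR-1306, detected in no other group, a difference was set by this filter, and for miR-1183 it was favoured. Among the 11 members on all arrays 1 was called higher and 7 lower, beside 21 higher and 49 lower of the 98 such names. With viral scaling 4 of the 14 were called higher and 2 lower, beside 115 higher and 20 lower of all tested names. In the main scaling 76.4% of all tested names were called, 37.0% higher and 39.4% lower. miR-1181 had a difference of -1.98 ± 0.19 (adjusted p = 7.7e-06), miR-1268 of -1.51 ± 0.28 (adjusted p = 0.00078) and miR-1300 of -1.25 ± 0.19 (adjusted p = 0.00021). Of these only miR-1181 was called under all 6 scalings, and miR-1300 was 0.17 with viral scaling. miR-1236 (-1.36 ± 0.62, adjusted p = 0.067), miR-1281 (-0.45 ± 0.24, adjusted p = 0.11) and miR-1305 (0.09 ± 0.37, adjusted p = 0.83) were not called.

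The 4 group means of most members stood in 1 order. For 8 of the 11 detected on all arrays the mean rose from control-vehicle through Dicer-vehicle and Dicer-metformin to control-metformin, and for miR-1287 it fell in exactly that order. miR-1224-3p and miR-1305 followed neither. The rising order was found for 52.0% of the 98 human names on all arrays and for 7 of the 10 viral probes. The falling order was found for 20.4% of those names and for all 6 canonical conserved microRNAs. Neighbours in the order often did not differ beyond their spread. Between Dicer-vehicle and Dicer-metformin cells, 7 of the 11 members were not called, 3 were called higher and 1 lower. The orders share the same groups, so they repeat the comparisons above and add no test.

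By their medians, the viral probes moved in the same direction as the members in each comparison, and the hur control features in the opposite direction. The median difference of the 10 viral probes on all arrays was 0.87, -0.49, 1.38 and 0.34 in the comparisons of Dicer shRNA under vehicle, Dicer shRNA under metformin, metformin in the control line and metformin in the Dicer shRNA line. Over the 11 members on all arrays it was 0.51, -0.35, 1.44 and 0.32. The 4 hur control features on all arrays had -0.81, 1.95, -3.84 and -0.999. The 15 names from miR-548 to miR-671 on all arrays, another largely late and poorly conserved block, had 0.95, -0.35, 1.84 and 0.29. The 13 left-out entries of the same number range had 0.36, -0.46, 1.11 and 0.42. The part of probe background in the members' differences was not tested. In bulk RNA, fewer copies of a microRNA per cell and a changed share of the labelled RNA cannot be told apart.

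**Figure D4:**
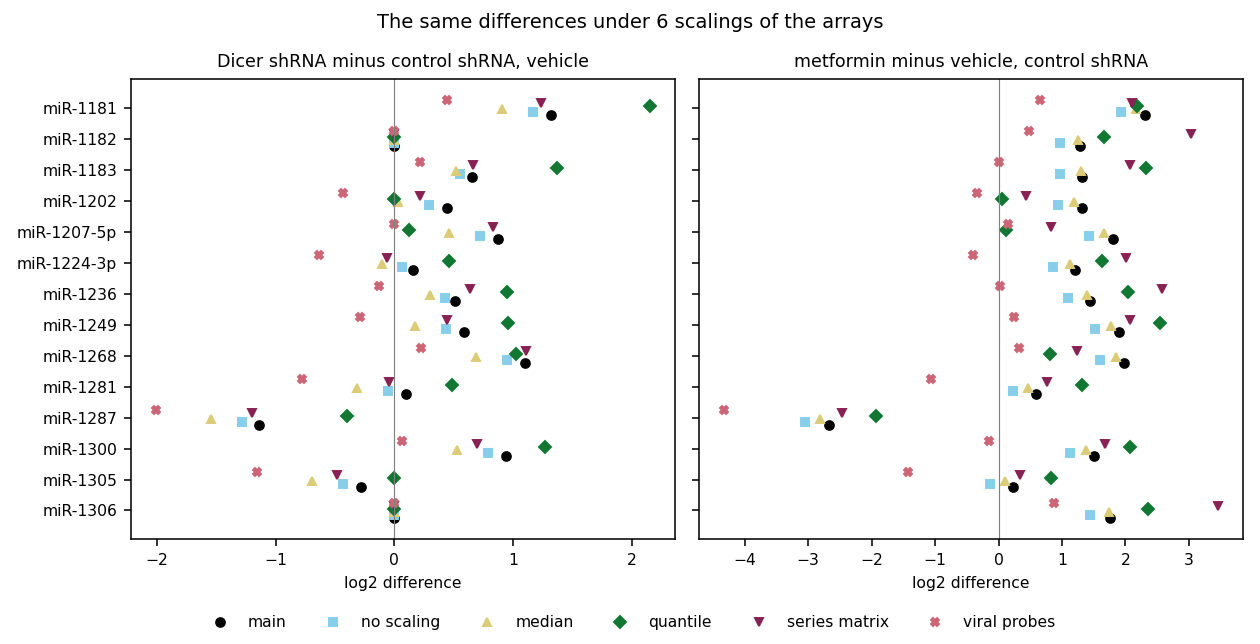
Log2 difference of the 14 tested members for Dicer shRNA under vehicle and for metformin in the control line, each under 6 scalings of the arrays. With viral scaling the values shift to the left, so that miR-1202, miR-1224-3p, miR-1236, miR-1249 and miR-1281 turn negative in the first panel (-0.44, -0.63, -0.13, -0.29 and -0.78) and miR-1202, miR-1224-3p, miR-1281, miR-1300 and miR-1305 in the second (-0.34, -0.40, -1.06, -0.15 and -1.42), while miR-1181 and miR-1268 stay positive and miR-1287 negative in both.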

How the data were processed

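Cy3-labelled RNA was read on Agilent microRNA arrays of 1 colour, 12 in 4 groups of 3. Per the labels the replicates are biological, and the labelling protocol describes a kit for mRNA. Groups come from the titles, since the source names contradict them in both metformin groups. Per the file headers, each deposited file gives for every name a linear intensity (the total gene signal), the error of that signal and a detection flag of 0 or 1. The submitters' processing notes name Agilent Feature Extraction 9.1. Undetected names hold 0.1. A deposited value table has log2 values for 221 names, 16 of them members, with column medians of 3.19 to 4.06. Against the log2 signals of detected names on the same array they gave r = 0.998 to 0.999 across names, so the direction is that of the signal and names were not centred; the scaling between arrays stays unknown.

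Signals were divided by each array's 75th percentile over the 98 human names detected on all 12 arrays (factors 0.869 to 1.20). They were raised to a floor of 3.01 (each array's 5th percentile of detected signals, taken as the median; log2 1.59) and logged. Human names detected throughout some group, 208 in number, entered a model of 4 group means in limma 3.58.1 (R 4.3.3; lmFit, eBayes; 8 residual and 1.85 prior degrees of freedom), with Benjamini-Hochberg adjustment over the 208. The fit was tested on simulated data. Folds against an undetected group set the brighter group's mean against the floor (log2 1.59), which is not a detection limit of the single probe. Tables used Python 3.11.15, numpy 2.4.6, pandas 2.3.3, scipy 1.17.1, data.table (version 1.17.8) and figures matplotlib 3.10.9.

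Every tested member is named, members detected elsewhere are named with their arrays, and the first 10 of the undetected are named in numerical order. The members and lists were chosen with earlier results of these data known. The precision is limited by 3 arrays per group. Alternatives covered the scaling, floor, filter, values, array weights, replicate block and each array left out. Replicate numbers did not pair the arrays, since same-numbered deviations correlated at -0.185 to 0.316.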

Additional observations from a re-analysis of the deposited data

Results flagged for a closer look

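The response to metformin differed between the 2 lines for 11 of the 14 tested members by the test of the difference itself (limma, log2, response in the Dicer shRNA line minus that in the control line). The same test called 76.4% of all tested names, 37.0% higher and 39.4% lower. The difference was -2.15 for miR-1183, -1.98 for miR-1181, -1.75 for miR-1306, -1.51 for miR-1268, -1.35 for miR-1224-3p, -1.28 for miR-1182, -1.25 for miR-1300, -1.23 for miR-1207-5p, -1.23 for miR-1249 and -0.75 for miR-1202. miR-1287 differed by 2.04, the only one above 0. miR-1306 and miR-1182 were not detected in the Dicer shRNA line, so their values rest on the floor. Like miR-1183, they were tested only through the control-metformin group. That filter set a difference for miR-1306 and miR-1182 and favoured one for miR-1183. The call of miR-1183 was lost without any of control-vehicle replicates 1 and 3, Dicer-vehicle replicates 2 and 3, control-metformin replicates 1 and 2 and Dicer-metformin replicate 1 (adjusted p = 0.0506 to 0.0745). The 10 viral probes on all arrays had a median of -1.32 in the same comparison and the 6 canonical conserved microRNAs 3.39. Their part in these differences was not tested.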

How the results depend on the processing

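Of 1287 recomputed differences of single members, 1145 kept direction and side of the threshold, 80 lost a call, 43 gained one and 19 reversed. miR-1287 kept its calls under every alternative run other than the series matrix in the Dicer shRNA line. miR-1306 also kept its calls wherever it was tested, but these were set by the filter, since only the control-metformin group detected it. With viral scaling the reversed values were, for Dicer shRNA under vehicle, miR-1202 -0.436, miR-1224-3p -0.631, miR-1249 -0.293 and miR-1281 -0.775; for metformin in the control line, miR-1202 -0.34, miR-1224-3p -0.397, miR-1281 -1.06, miR-1300 -0.149 and miR-1305 -1.42; and for the difference between responses, miR-1202 0.669, miR-1207-5p 0.187, miR-1224-3p 0.164, miR-1249 0.183, miR-1281 0.963 and miR-1300 0.168. That scaling moved the median of all tested names to -0.67, -0.99 and 0.82 in these comparisons, from 0.00, 0.52 and -0.53. After quantile normalization miR-1181 was 0.031 for Dicer shRNA under metformin and miR-1202 -0.052 for metformin in the Dicer shRNA line; with the series matrix miR-1202 was -0.154 and miR-1207-5p -0.283 there. The cause was not tested.

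The number of members called for Dicer shRNA under metformin, 6, was 13 when scaled to the median, 13 with array weights and 2 with viral scaling. Of all tested names, 23 were called higher and 106 lower when scaled to the median, and 36 higher and 15 lower with viral scaling. For metformin in the Dicer shRNA line, 4, it was 2 without scaling, 2 with the series matrix and 7 with array weights. All tested names had 6 higher and 44 lower without scaling, and 34 higher and 12 lower with the series matrix. For the difference between responses, 11, it was 6 with viral scaling, beside 115 higher and 20 lower of all tested names. The estimation of array weights gave a warning that it stopped before convergence. Leaving out 1 array gave 5 to 7, 5 to 8, 12 to 13, 1 to 7 and 10 to 12 called in the order of the report. With the replicate block the counts were 7, 7, 13, 3 and 11; miR-1183 gained a call for Dicer shRNA under metformin (adjusted p = 0.0348), miR-1207-5p lost that for metformin in the Dicer shRNA line (0.0707), and no other call changed. Fitting only the 6 arrays of a slide, an alternative chosen after seeing the data, gave 6 and 8 called; miR-1249 under vehicle (0.0575) and miR-1182 under metformin (0.0514) were lost. Leaving out Dicer-vehicle replicate 3 gave miR-1281 a call for the difference between responses (0.0227), and leaving out any Dicer-vehicle array gave one to miR-1236 (0.0328 to 0.0424). With detection set at 2 times the lowest detected signal, 10.7, 11, 14.7 and 9.67 members were detected per array in control-vehicle, Dicer-vehicle, control-metformin and Dicer-metformin cells. With the deposited detection flag, the means without 1 array ran in the same order from 12 to 12.5, 12.5 to 13, 14.5 to 15 and 11.5 to 12.5. Scaling to the 75th percentile over all human names was not run, since that percentile is 0.1, the value of undetected names, on every array.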
